A study of Mus musculus with 12 samples.

Results

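The genes described here encode RNA-binding proteins that set how long messenger RNAs last. They are Zfp36, Zfp36l1 and Zfp36l2, Zc3h12a (Regnase-1), Rc3h1 and Rc3h2 (Roquin-1 and Roquin-2), and Elavl1 (HuR). They were chosen by gene name, and all 7 were found among the 24421 genes of the table and passed the filter on low values. RNA was sequenced from sorted fetal thymocytes of C57BL/6 mice, in 12 libraries that make 6 groups of 2. Every embryo lacked Rag1 and carried loxP-flanked Bcl6 alleles. KO embryos were Rag1KOBcl6fl/flLckCre+ and control embryos Rag1KOBcl6fl/flLckCre-, so the effect of Cre itself cannot be told apart from that of losing Bcl6. The Lck promoter drives this Cre in T lineage cells. For each genotype there were unstimulated CD25-positive thymocytes, taken at E16.5, and 2 populations from thymi held for 2 days on filters with 1 µg/ml anti-CD3. The ISP cells were CD8-positive and CD4-negative, and the DP cells were positive for both. The treatment protocol gives E17.5 for the stimulated thymi, while the other labels give E16.5.

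Without Rag1 the receptor genes are not rearranged and thymocytes do not develop past the CD25-positive stage, and anti-CD3 stands in for the missing receptor signal. Cells that receive it divide, pass through the immature single-positive stage and become double-positive cells, which are small and mostly at rest. ZFP36 proteins bind AU-rich elements in the 3′ untranslated region (UTR) of short-lived messenger RNAs and bring in the CCR4-NOT complex, which shortens the poly(A) tail. Loss of both ZFP36L1 and ZFP36L2 in mouse thymocytes disturbs the passage through this receptor checkpoint and leads to leukaemia with high NOTCH1. Regnase-1 is an endonuclease that cuts stem-loops in messenger RNAs, the Roquins bind stem-loops and recruit deadenylases, and HuR binds AU-rich and U-rich sequences and mostly protects the RNA.

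Groups follow the sample titles. Of the 8 anti-CD3 libraries, 6 carry a sequencing library name whose population or genotype differs from that in the title. The developmental stage entry also names ISP cells for all 4 libraries titled DP, and DP cells for ISP KO 2. In RPKM, reads per kilobase of transcript scaled to depth, Cd4 ran between 190.6 and 344.1 in libraries titled DP, against 13.9 to 20.5 in those titled ISP. CD25 libraries carry no such conflict. Bcl6, the targeted gene, was at 1.63 and 2.01 RPKM in CD25 KO and at 1.49 and 1.82 in CD25 control libraries. In ISP it was at 18.9 and 25.1 in KO and at 11.6 and 11.9 in control libraries, and in DP at 87.8 and 111.3 in KO and 69.95 and 72.5 in control libraries. These are values for the gene as a whole, which cannot tell if the loxP-flanked exons are gone, so the deletion is not checked here. Bcl6 RNA was called higher in KO in ISP (log2 difference 0.84, limma adjusted p = 0.0249) and in DP (0.47, adjusted p = 0.0319), but not in CD25 (0.09, adjusted p = 0.920). The Y-linked gene Ddx3y stayed between 0 and 0.0979 RPKM in anti-CD3 KO libraries and lay between 7.28 and 56.3 in anti-CD3 control libraries, so sex-linked expression moved with genotype there. Depth was between 9657633 and 14227980 reads per library. Nothing in the labels says that replicate libraries came from separate embryos, so the p-values measure only the spread between these samples, which may be technical.

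The 3 ZFP36 paralogs changed places as the cells moved on. Zfp36 itself was at the bottom of the family in CD25 cells and at the top in DP cells, whereas Zfp36l2 took the opposite course and Zfp36l1 moved less. By the GENCODE M21 gene models (GRCm38), Zfp36 lies on chromosome 7 (28376784 to 28380253), Zfp36l1 on chromosome 12 (80107754 to 80113013) and Zfp36l2 on chromosome 17 (84183931 to 84187947), all on the minus strand. Their proteins recognise the nonamer TATTTATTT (with U for T in RNA), and members of the family are known to act on their own transcripts. The UTRs were therefore read for that nonamer on the transcript strand, with overlapping copies counted. Zfp36l1 and Zfp36l2 each held 1 copy, and Zfp36 held 0. Each site is shown with 10 bases on either side, with the nonamer in capitals.
Zfp36l1 (chr12:80108166-80108194): actgttggatTATTTATTTtagaaattct
Zfp36l2 (chr17:84184679-84184707): ttgtatgtaaTATTTATTTcattaatttc
A UTR of similar length (within 20%) held at least 1 copy in 12.1% of the genes compared with Zfp36l1 and in 12.1% of those compared with Zfp36l2, and in 4.67% of those compared with Zfp36. A match is a description of the letters only.

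Zfp36 encodes tristetraprolin, which limits cytokine messages and belongs to the immediate early genes of stimulated fibroblasts. It was at 5.51 and 3.37 RPKM in CD25 KO and at 3.47 and 3.41 in CD25 control libraries. In ISP it was at 26.5 and 31.0 in KO and 32.5 and 30.4 in control libraries, and in DP at 71.3 and 59.2 in KO and 89.6 and 90.0 in control libraries. The ranges of the 3 populations did not overlap. ISP averaged 30.1 ± 2.56 RPKM against 3.94 ± 1.05 in CD25 (SD, n = 4 each), a 7.64-fold ratio. On the log2(RPKM + 1) scale used for all tests below, Zfp36 rose by 2.67 (SE 0.11, limma adjusted p = 1.10e-09). Of the 11303 genes tested, 30 had a larger log2 change. DP averaged 77.5 ± 14.99 RPKM, 2.58-fold the ISP level, a rise of 1.32 (SE 0.11, adjusted p = 3.33e-07) that 215 genes exceeded. In these bulk samples fewer cells of a type and less RNA per cell cannot be told apart, and ISP and DP cells were stimulated and cultured while CD25 cells were not, so stage and culture cannot be told apart either.

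The Zfp36 promoter is shown because this gene moved far more than any other of the 7. RefSeq (GRCm38.p6) gives 250 bases before the start and 50 after it, here chr7:28379179-28379478 on the minus strand. Capitals mark an EGR motif, GCGGGGGCG, that begins 105 bases before the start, and an SRF CArG box 58 bases before it, the factors named being the known binders of such letters. Annotated starts of this gene differ. The RefSeq start lies inside both GENCODE transcripts, 27 bases after the start of ENSMUST00000209061.1 and 1025 bases after that of ENSMUST00000051241.6, and distances here are from the RefSeq start.
Zfp36 promoter: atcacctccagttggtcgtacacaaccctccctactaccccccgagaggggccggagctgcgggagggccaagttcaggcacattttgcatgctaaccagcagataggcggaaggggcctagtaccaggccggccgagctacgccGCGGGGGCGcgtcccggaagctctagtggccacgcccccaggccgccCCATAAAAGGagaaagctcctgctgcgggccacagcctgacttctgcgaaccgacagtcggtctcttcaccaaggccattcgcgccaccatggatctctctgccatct
The same window held GCGGGGGCG in 2.91% of 32851 mouse promoters and a CArG box in 1.63%. Searches covered both strands. The other 5 promoters in the table, those of Zfp36l1, Zc3h12a, Rc3h1, Rc3h2 and Elavl1, held neither. The Zfp36 window also held 1 STAT motif, TTCNNNGAA (8.3% of promoters), and no BCL6 motif TTCCTAGAA (0.411%), a word that is itself a case of TTCNNNGAA. No match says only that these letters are not in this window.

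Zfp36l2, known to be needed for blood formation in mice, was at 47.1 and 41.4 RPKM in CD25 KO and 42.0 and 41.2 in CD25 control libraries. ISP libraries had 33.9 and 33.8 in KO and 28.5 and 25.4 in control libraries, and DP libraries had 18.9 and 14.6 in KO and 18.3 and 18.1 in control libraries. The populations again did not overlap. Zfp36l2 fell by 0.49 in ISP against CD25 (SE 0.07, limma adjusted p = 9.98e-05), and again in DP against ISP, where it fell by 0.76 (SE 0.07, adjusted p = 1.69e-06). Its DP mean was 0.575 times its ISP mean.

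Zfp36l1 was at 12.5 and 10.4 RPKM in CD25 KO and 10.5 and 12.8 in CD25 control libraries. ISP libraries had 13.8 and 20.9 in KO and 13.1 and 13.7 in control libraries, and DP libraries had 19.7 and 17.3 in KO and 22.6 and 18.1 in control libraries. A single library, ISP KO 2, lay apart from the other 3 ISP libraries and within the range of the DP libraries. Zfp36l1 rose by 0.37 in ISP against CD25 (SE 0.12, limma adjusted p = 0.0178), and its level in DP was above that in ISP by 0.34 (SE 0.12, adjusted p = 0.0243). These values pool genotypes whose steps differed in size. In means, ISP over CD25 was 1.51-fold in KO and 1.155-fold in control libraries. DP over ISP was 1.07-fold in KO and 1.52-fold in control libraries. A change of the genotype difference between ISP and DP was not called (limma adjusted p = 0.309). Without ISP KO 2 (adjusted p = 0.0802), CD25 KO 2 (0.0704) or CD25 control 1 (0.0718) the difference between ISP and CD25 was no longer called, nor that between DP and ISP without ISP KO 1 (0.114), ISP control 1 (0.0622), DP KO 1 (0.0803) or DP control 1 (0.0988). With no filter on low values neither was called (0.0544 for ISP against CD25 and 0.0694 for DP against ISP), nor was DP against ISP in the 4 anti-CD3 libraries whose title and library name give the same population (0.30, adjusted p = 0.173). In all 8 anti-CD3 libraries together the rise over CD25 was 0.54 (SE 0.10, adjusted p = 5.47e-04).

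**Figure D1:**
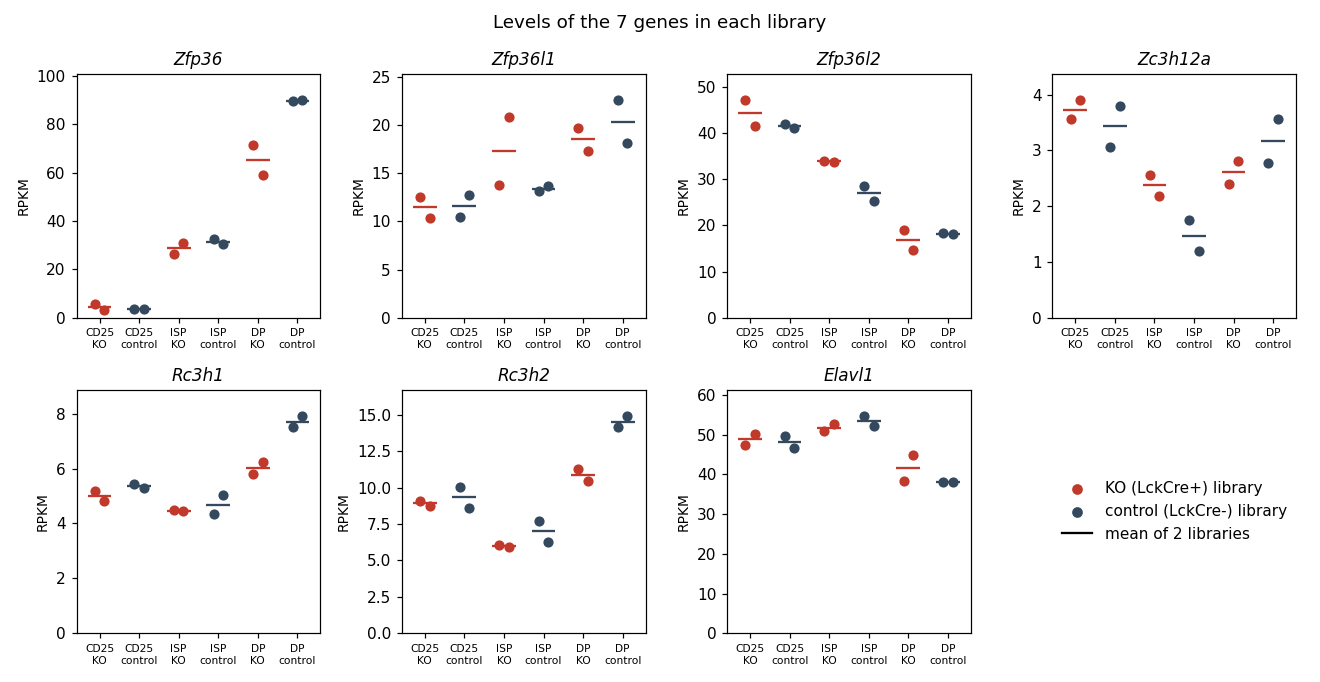
Level of each gene in RPKM (vertical axis, from 0) in the 12 libraries, by population and genotype, with a point per library and a bar at the mean of 2. Zfp36 sits between 59.2 and 90.0 RPKM in DP libraries and at 5.51 or less in CD25 libraries, and Zfp36l2 runs the other way.

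Because RPKM is per length, the paralogs may be added. Their summed level was 58.4 ± 4.595 RPKM in CD25, 75.9 ± 6.88 in ISP and 114.5 ± 17.9 in DP (SD, n = 4 each). Zfp36 made up 5.95% to 8.46% of that sum in CD25 libraries, between 35.7% and 43.9% in ISP libraries and between 64.9% and 71.3% in DP libraries. Within ISP the Zfp36 share was 35.7% and 36.2% in KO and 43.9% and 43.8% in control libraries. Zfp36l2 held 71.8% to 75.1% of the CD25 sum, 36.5% to 45.7% of the ISP sum and 14.0% to 17.2% of the DP sum. The Zfp36l1 share overlapped between the populations, with 18.7% to 22.3% of the CD25 sum, 17.7% to 24.3% of the ISP sum and 14.4% to 19.02% of the DP sum. Zfp36l3, a further mouse paralog known from placenta and yolk sac, was listed at 0 in all CD25 and ISP libraries and reached 0.094 RPKM in DP.

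**Figure D2:**
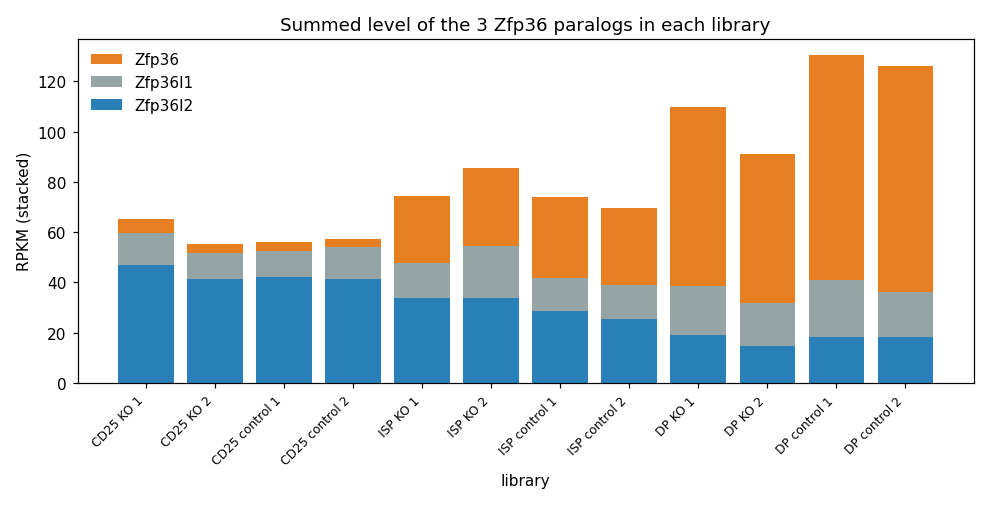
Levels of Zfp36l2, Zfp36l1 and Zfp36 in RPKM stacked for each of the 12 libraries. Zfp36 makes up 5.95% to 8.46% of the bar in CD25 libraries and 64.9% to 71.3% in DP libraries, and the sum runs between 55.2 and 130.5 RPKM.

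Regnase-1 and Roquin-2 were lowest in ISP cells, and Roquin-1 and Roquin-2 were highest in DP cells. Zc3h12a lies on chromosome 4 (125118423 to 125127840, minus strand), Rc3h1 on chromosome 1 (160906418 to 160974978, plus strand) and Rc3h2 on chromosome 2 (37370069 to 37422903, minus strand). Zc3h12a was at 3.57 and 3.897 RPKM in CD25 KO and 3.05 and 3.802 in CD25 control libraries. In ISP it was at 2.55 and 2.19 in KO and 1.74 and 1.19 in control libraries, and in DP at 2.40 and 2.81 in KO and 2.78 and 3.56 in control libraries. ISP and DP libraries overlapped, and all CD25 libraries lay above all ISP libraries. Zc3h12a was the lowest of the 7 in all 3 populations by mean and rests on 39 to 147 reads per library. The gene fell by 0.67 in ISP against CD25 (SE 0.11, limma adjusted p = 2.19e-04) and rose by 0.43 in DP against ISP (SE 0.11, adjusted p = 0.00434). In the 4 anti-CD3 libraries whose title and library name give the same population, fitted with the CD25 libraries, the DP difference was 0.44 but not called (adjusted p = 0.0696).

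Rc3h2 was at 9.08 and 8.76 RPKM in CD25 KO and 10.1 and 8.58 in CD25 control libraries. The ISP libraries had 6.05 and 5.89 in KO and 7.74 and 6.26 in control libraries, and DP libraries had 11.3 and 10.5 in KO and 14.1 and 14.9 in control libraries. The populations were apart, with ISP lowest and DP highest. Rc3h2 fell by 0.44 in ISP against CD25 (SE 0.08, limma adjusted p = 3.23e-04) and rose by 0.87 in DP against ISP (SE 0.08, adjusted p = 7.13e-07), a 1.96-fold ratio of means. Its UTR held 1 copy of the ZFP36 nonamer, where 26.8% of UTRs of similar length held at least 1.
Rc3h2 (chr2:37373286-37373314): aaagacatttTATTTATTTtactctgtaa

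Rc3h1, the Roquin whose mutation causes autoimmunity in sanroque mice, was at 5.18 and 4.82 RPKM in CD25 KO and 5.43 and 5.30 in CD25 control libraries. In ISP it was at 4.50 and 4.44 in KO and 4.33 and 5.04 in control libraries, and in DP at 5.79 and 6.23 in KO and 7.51 and 7.93 in control libraries. CD25 and ISP libraries overlapped, and all DP libraries lay above both. The ISP difference from CD25 was -0.15 (95% interval -0.31 to 0.01, limma adjusted p = 0.0922), and it was called when reads were fitted with voom (-0.18, adjusted p = 0.0214) or values were scaled to plain read totals (-0.20, adjusted p = 0.0269). DP was higher than ISP by 0.49 (SE 0.07, adjusted p = 6.82e-05). Neither Rc3h1 nor Zc3h12a held the nonamer in its UTR.

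Elavl1 (chromosome 8, 4285382 to 4325413, minus strand), the one gene of the set whose product is mostly a stabiliser, was at 47.5 and 50.3 RPKM in CD25 KO and 49.8 and 46.7 in CD25 control libraries. The ISP libraries had 50.9 and 52.6 in KO and 54.8 and 52.2 in control libraries, and DP libraries had 38.5 and 45.03 in KO and 38.2 and 38.1 in control libraries. All DP libraries lay below all CD25 and ISP libraries. It fell by 0.39 in DP against ISP (SE 0.05, limma adjusted p = 3.16e-05), and the ISP difference from CD25 was 0.11 (95% interval -0.0023 to 0.23, adjusted p = 0.0794), which was called with voom (0.0466) and without DP KO 1 (0.0347) or DP KO 2 (0.0350). Its UTR held 7 overlapping or neighbouring copies of the nonamer, and 21.7% of UTRs of similar length held at least 1. The one farthest upstream is shown, and the bases after the capitals carry on the same repeat.
Elavl1 (chr8:4285787-4285815): tcatgaaaatTATTTATTTatttatttat

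In ISP against CD25, 2 of the 7 genes were called higher (Zfp36, Zfp36l1) and 3 lower (Zfp36l2, Zc3h12a, Rc3h2), where 63.9% of all tested genes were called (33.1% higher, 30.9% lower). In DP against ISP all 7 were called, 5 higher and 2 lower (Zfp36l2, Elavl1), where 70.6% of all genes were called (35.6% higher, 35% lower). Since most genes of the table were called at both steps, the sizes and directions carry the description. The median log2 change of the 7 was -0.15 at the ISP step, against 0.01 over all genes, and 0.43 at the DP step, against 0.01 over all genes. The label conflict does not touch the contrast of the 8 anti-CD3 libraries with the CD25 ones. There Zfp36 was 13.7-fold higher (log2 change 3.33, SE 0.09, limma adjusted p = 2.15e-11, with 19 genes above it). Zfp36l2 was lower, with a log2 change of -0.87 (SE 0.06, adjusted p = 1.30e-07) and so was Zc3h12a, with -0.45 (SE 0.10, adjusted p = 0.00106), and with Zfp36l1 they made 4 of 7 called, where 72.1% of all genes were (35.6% higher, 36.5% lower). Rc3h1, Rc3h2 and Elavl1 differed by 0.10, -0.01 and -0.08 and were not called, apart from Elavl1 without DP KO 2 (-0.11, adjusted p = 0.0246) or scaled to plain read totals (-0.14, adjusted p = 0.0175).

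**Figure D3:**
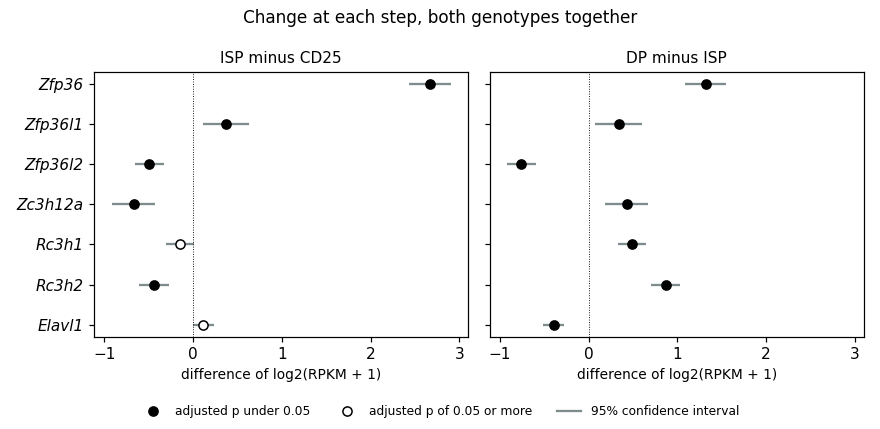
Difference of log2(RPKM + 1) with its 95% confidence interval for each gene, in ISP minus CD25 (left) and DP minus ISP (right), both genotypes together, with filled points for adjusted p under 0.05. Zfp36 stands at 2.67 and 1.32, and the other 6 genes lie between -0.76 and 0.87.

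Markers of other cells moved with these steps. The 5 NK and innate lymphoid markers summed to between 228.1 and 284.4 RPKM in CD25 libraries, between 208.8 and 305.8 in ISP libraries and between 18.4 and 30.9 in DP libraries. Most of the sum was Nkg7, with CD25 libraries at 200.9 to 250.2, ISP libraries at 110.2 to 155.7 and DP libraries at 11.8 to 14.6. The other 4 were higher in all ISP libraries than in all CD25 libraries. Ncr1, the marker most particular to NK cells, was at 0.176 to 0.815 in CD25 cells, reached 6.50 to 10.3 in ISP cells and was at most 0.844 in DP cells. For Klrd1 the CD25 range was 0.859 to 1.59, the ISP range 16.0 to 29.6 and the DP range 0.243 to 1.23. For Klrb1c these ranges were 0 to 0.139, 2.67 to 5.80 and 0 to 0.295 in that order of stages. Tyrobp lay between 25.4 and 31.8 in CD25 cells, between 73.4 and 105.4 in ISP cells and between 5.06 and 16.0 in DP cells. Of the 6 mast cell markers only Cpa3 passed 1 RPKM in CD25 libraries, at 23.4 to 28.9, and it was at 0 to 1.72 in DP. In ISP the 6 summed to 24.4 and 30.5 RPKM in KO and to 10.0 and 12.6 in control libraries. Most of that was Cpa3, at 22.1 and 28.6 in ISP KO and 10.0 and 12.6 in ISP control libraries. Of the others only Cma1 was above 0 in both ISP KO libraries (0.567 and 1.27) and at 0 in both ISP control libraries. Of the 5 thymic epithelium markers 3 or 4 were under 1 RPKM in every group, and Epcam made up most of a sum of 107.9 to 120.1 RPKM in CD25 and 14.4 to 21.9 in the other libraries. The part of these cells in the results was not tested. The T lineage genes Cd3e, Cd3g, Thy1 and Lck summed to at least 2716 RPKM in every library.

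The order of levels within a population changed accordingly. In CD25 cells Elavl1 (48.5 ± 1.73 RPKM, SD, n = 4) and Zfp36l2 (42.9 ± 2.81) led and overlapped in range. Zfp36l1 and Rc3h2 followed apart from each other, and at the bottom Rc3h1, Zfp36 and Zc3h12a overlapped each with the next. In ISP cells Elavl1 (52.6 ± 1.61) stood apart at the top, and Zfp36l2 (30.4 ± 4.19) and Zfp36 (30.1 ± 2.56) had overlapping ranges. The lower 4 were apart from one another there. In DP cells Zfp36 (77.5 ± 14.99) was apart from Elavl1 (39.9 ± 3.41), and Zfp36l1 (19.4 ± 2.32), Zfp36l2 (17.49 ± 1.94) and Rc3h2 (12.7 ± 2.16) overlapped each with the next.

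Across the 12 libraries, which share populations and therefore most of their variation, Zfp36 and Zfp36l2 were related with Pearson's r = -0.899 on the log2 scale, and Rc3h1 and Rc3h2 with r = 0.907. Elavl1 ran against both Roquins (r = -0.897 with Rc3h1 and -0.875 with Rc3h2). Similar patterns were sought among 2299 tested genes that average at least 5 RPKM and whose 6 group means span at least 1 on the log2 scale. The genes described here were left out, as were symbols that start with Gm plus digits or end in Rik. In that set Rasgrp1, a Ras activator of thymocyte receptor signalling, had the pattern most like Zfp36 (r = 0.995). It averaged 13.8 RPKM in CD25, 53.6 in ISP and 118.0 in DP, and Endou (0.995) and Sla, an adaptor that tempers receptor signals (0.994), followed. The 3 genes most like Zfp36l2 were Coro2a (0.988), Atp8b4 (0.983) and Il7r, the interleukin-7 receptor chain (0.982), which averaged 28.9 RPKM in CD25, 11.0 in ISP and 0.795 in DP. Rc3h2 was most like Helz (0.986), Rc3h1 like Gpatch2 (0.963) and Elavl1 like Slirp (0.975). For Zfp36l1 and Zc3h12a the closest genes were Kdm6b (0.935) and Dapp1 (0.895). These are descriptions with no test.

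The decay machinery that these proteins call on was also read. For comparison, 33.1% of all tested genes were called higher and 30.9% lower in ISP than in CD25. In DP against ISP these shares were 35.6% and 35%. Among 15 genes of CCR4-NOT and its BTG/TOB adaptors 5 were higher and 4 lower in ISP than in CD25, and 10 were higher and 2 lower in DP than in ISP. The adaptors led the DP step. Btg1, known as a factor of T cell quiescence, averaged 137.3 ± 14.2 RPKM in DP and 34.6 ± 2.21 in ISP (3.97-fold, log2 change 1.95, limma adjusted p = 1.17e-10), and Btg2 202.1 ± 31.4 in DP and 79.6 ± 5.72 in ISP (2.54-fold, adjusted p = 3.07e-09). Cnot6, a deadenylase subunit, was 1.68-fold higher in DP. Of 11 genes of decapping and 5′ to 3′ decay 8 were higher and 0 lower in DP, with Xrn1, the 5′ to 3′ exonuclease, at 18.3 ± 5.16 in DP and 6.84 ± 1.43 in ISP, and Pan3, a part of another deadenylase, at 44.9 ± 3.38 in DP and 21.9 ± 4.42 in ISP. The median log2 change of that list was 0.39 and that of CCR4-NOT 0.37, against 0.01 over all genes.

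The RNA exosome, which degrades RNA from the 3′ end, took the other direction. Of its 11 genes 8 were higher in ISP than in CD25, such as Exosc3 (129.0 ± 5.00 in ISP and 82.5 ± 3.84 in CD25), and 10 of 11 were lower in DP than in ISP with a median of -0.77. Exosc7 averaged 45.6 ± 5.15 RPKM in DP and 105.4 ± 8.00 in ISP (SD, n = 4 each, limma adjusted p = 1.06e-08), and Exosc2 33.1 ± 4.76 in DP and 74.7 ± 2.93 in ISP. Scaled to plain read totals, 5 of 11 were higher in ISP. The shares over all tested genes were 33.1% higher and 30.9% lower at the ISP step, and 35.6% and 35% at the DP step. Of 11 other AU-rich element binding proteins tested, 6 were higher and 2 lower in ISP than in CD25, and 5 were higher and 5 lower in DP than in ISP. Elavl4, a HuR relative best known from neurons, was at 17.9 ± 3.63 in DP and 3.44 ± 0.54 in ISP (5.21-fold, adjusted p = 3.40e-09), while Hnrnpd (AUF1) was at 65.0 ± 15.6 in DP and 93.8 ± 8.04 in ISP. Of 9 Regnase paralogs and regulators, 1 rose and 3 fell at the ISP step (1 to 2 higher and 0 to 2 lower with single libraries left out, 0 without CD25 control 2) and 2 rose and 3 fell at the DP step, among them Arid5a, which shields some messages from Regnase-1, at 4.31 ± 0.55 in DP and 6.76 ± 0.77 in ISP.

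Messages reported elsewhere as targets of ZFP36 proteins, Regnase-1 or Roquin moved both ways at the ISP step, with 6 of 17 higher and 6 lower. That is near the shares over all tested genes, of which 33.1% were higher and 30.9% lower. They moved mostly down at the DP step, with 3 higher and 10 lower and a median of -0.43, where 35.6% of all genes were higher and 35% lower. Leaving out single libraries left between 7 and 9 lower. Myc averaged 29.2 ± 11.1 RPKM in DP and 143.2 ± 11.2 in ISP (log2 change -2.33, SE 0.06, limma adjusted p = 6.16e-11), and the survival gene Bcl2 3.85 ± 0.75 in DP and 9.50 ± 1.89 in ISP. Ccnd3, cyclin D3, was higher at both steps, with 63.6 ± 2.20 in CD25, 338.1 ± 34.0 in ISP and 603.6 ± 27.1 in DP. Notch1 averaged 106.5 ± 12.2 in CD25, 51.0 ± 5.51 in ISP and 45.1 ± 2.73 in DP, and its ISP level was 0.479 times its CD25 level (log2 change -1.05, SE 0.07, limma adjusted p = 1.04e-07). Its UTR holds the nonamer once, 154 bases in, and 10.5% of UTRs of similar length held at least 1. No UTR was read for Myc, so whether Myc holds the nonamer is not known here. Among the other tested targets with a UTR read, Tnf, Rel, Ccne2, E2f2 and Bcl2 also hold it. Of these E2f2 was higher at both steps and Bcl2 lower at both. A link between site and level was not tested. The Notch1 site is shown because ZFP36L1 and ZFP36L2 are known to act on Notch1 in mouse thymocytes.
Notch1 (chr2:26459359-26459387): ttttttttagTATTTATTTatgtactttt
Il2ra, also on the list, encodes the CD25 used for sorting. In its 15.8-fold lower level in ISP, gate, stage and culture cannot be told apart.

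**Figure D4:**
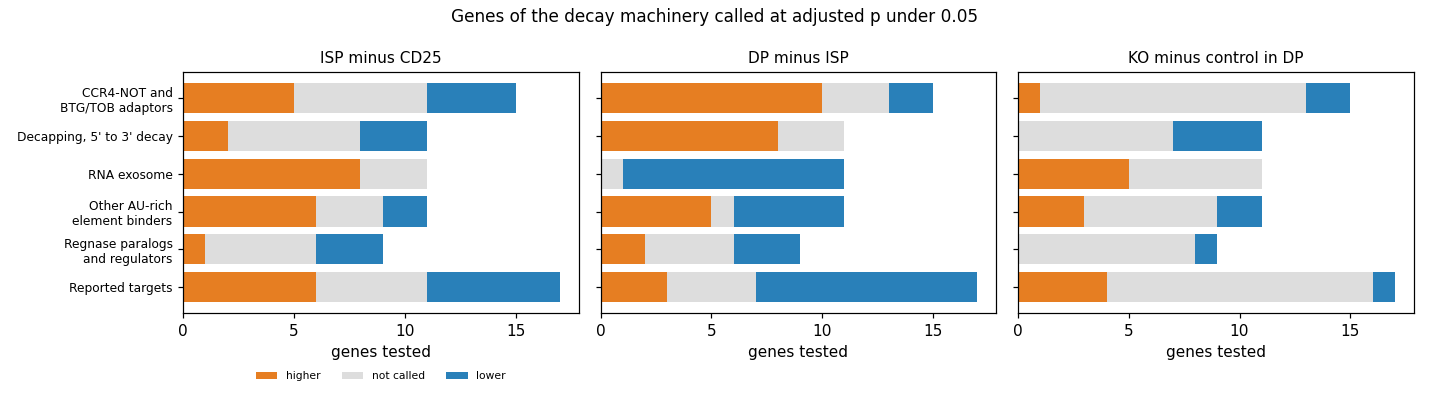
Number of tested genes called higher, not called and called lower (adjusted p under 0.05) in 6 gene lists, in ISP minus CD25, DP minus ISP and KO minus control in DP. In DP minus ISP 10 of 11 exosome genes are lower, and 8 of 11 decapping and 5′ to 3′ decay genes are higher. Of all tested genes 35% are lower and 35.6% higher there.

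The comparison of genotypes set Cre-positive against Cre-negative embryos. In CD25 cells 0 of the 7 were called by limma on the 4 CD25 libraries, where 0.0188% of 10636 genes were called (0.0094% higher, 0.0094% lower) and 972 had an unadjusted p under 0.05. Voom on reads called 14 genes and none of the 7. The largest difference was that of Zfp36, at 4.44 ± 1.51 RPKM in KO and 3.44 ± 0.04 in control libraries (log2 difference 0.26, 95% interval -0.18 to 0.70, adjusted p = 0.723). Without CD25 KO 1 it was -0.023. In both the CD25 and the ISP comparison each of the 6 lists above had 0 called genes.

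In ISP cells 0 of the 7 were called as well, where 0.354% of 11303 genes were called (0.257% higher, 0.0973% lower) and 1494 had an unadjusted p under 0.05. Voom called 181 genes and none of the 7. Zc3h12a averaged 2.37 ± 0.26 RPKM in KO and 1.47 ± 0.39 in control libraries (log2 difference 0.46, 95% interval 0.11 to 0.80, limma adjusted p = 0.225). Zfp36l2 averaged 33.8 ± 0.08 in KO and 26.9 ± 2.23 in control libraries (0.32, interval 0.09 to 0.55, adjusted p = 0.203). The 2 libraries of each genotype did not overlap in 4 of the 7 genes, with Zc3h12a, Zfp36l2 and Zfp36l1 higher and Rc3h2 lower in KO, where 45.2% of all genes did not overlap, and none of the 4 passed the adjustment. Zfp36 was at 28.8 ± 3.18 in KO and 31.5 ± 1.48 in control libraries (-0.13, interval -0.46 to 0.20).

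In DP cells 3 of the 7 were called and all 3 were lower in KO, where 21.9% of all genes were called (14.1% higher, 7.78% lower). Rc3h2 averaged 10.9 ± 0.57 RPKM in KO and 14.5 ± 0.57 in control libraries (log2 difference -0.39, SE 0.11, limma adjusted p = 0.0260). Rc3h1 averaged 6.01 ± 0.31 in KO and 7.72 ± 0.30 in control libraries (-0.31, SE 0.10, adjusted p = 0.0475). Zfp36 averaged 65.3 ± 8.57 in KO and 89.8 ± 0.33 in control libraries (-0.46, SE 0.15, adjusted p = 0.0496). The 2 libraries of each genotype did not overlap in these 3 genes and in Elavl1, which was higher in KO but not called, where 62.3% of all genes did not overlap. The calls lay close to the threshold: without DP KO 2, DP control 1 or DP control 2 none of the 3 was called, and with no filter on low values their adjusted p were 0.0540 (Rc3h2), 0.0730 (Rc3h1) and 0.127 (Zfp36). Voom on reads called all 3. The coreceptor gene Cd4 was also lower, with 220.0 ± 41.7 RPKM in DP KO and 341.0 ± 4.27 in DP control libraries (-0.64, SE 0.18, limma adjusted p = 0.0253), and the part of this difference in the results was not tested. Of 18 alternatives, 13 lost the call of Rc3h1, 11 that of Zfp36 and 4 that of Rc3h2. Grouping by library name turned all 3 differences round, but it sets libraries titled DP against libraries titled ISP. By the titles it therefore compares stages and not genotypes.

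The other 4 genes were not called in DP. Zfp36l1 differed by -0.12 (95% interval -0.50 to 0.25), Zfp36l2 by -0.12 (-0.35 to 0.11), Zc3h12a by -0.21 (-0.55 to 0.14) and Elavl1 by 0.12 (-0.04 to 0.29). Without DP KO 1, Zfp36l2 (-0.30, adjusted p = 0.0449) and Elavl1 (0.24, adjusted p = 0.0423) were called. Markers of myeloid cells, which also express Zfp36, differed by genotype in every population. The 8 myeloid markers summed to 61.1 and 75.1 RPKM in DP KO and to 9.34 and 17.3 in DP control libraries, and to 37.7 and 59.4 in ISP KO and 10.0 and 13.2 in ISP control libraries. The CD25 sums were 41.2 and 51.7 in KO and 22.1 and 40.7 in control libraries. There Lyz2 was at 25.5 and 29.1 in KO and 18.5 and 12.0 in control libraries, while S100a8 and Mpeg1 overlapped. Of the 8, 1 was under 1 RPKM in DP KO and 5 in DP control libraries. Most of the sum was Lyz2, at 43.8 and 65.2 in DP KO and 13.03 and 5.50 in DP control libraries. Csf1r was at 0.757 and 2.23 in DP KO and 0.343 and 0.317 in DP control libraries, and Adgre1 at 0.718 and 1.62 in KO and 0.351 and 0.076 in control. Fcgr3 and Mpeg1 were also higher in both DP KO libraries than in both DP control libraries. Cd14, S100a8 and Itgam were not apart, with Cd14 at 0 in DP KO 1 and in both DP control libraries, and Itgam at 2.06 and 1.42 in DP KO and 1.89 and 2.29 in DP control libraries. The part of these cells in the genotype differences was not tested, nor was that of the mast cell markers in ISP or of the sex-linked difference.

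**Figure D5:**
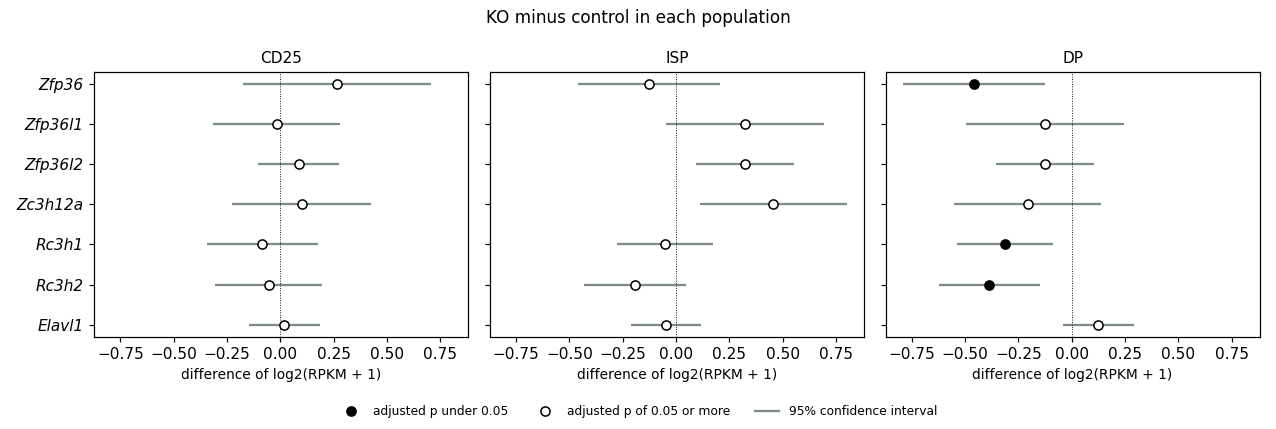
Difference of log2(RPKM + 1) between KO and control libraries with its 95% confidence interval for each gene in CD25, ISP and DP cells, with filled points for adjusted p under 0.05. Only Zfp36, Rc3h1 and Rc3h2 in DP are filled, at -0.46, -0.31 and -0.39.

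Whether the genotype difference itself changed between DP and ISP was tested as an interaction. None of the 7 was called, where 4.19% of all genes were called (3.67% higher, 0.522% lower) and 2441 had an unadjusted p under 0.05. Zc3h12a came to -0.66 (SE 0.22, limma adjusted p = 0.113) and Zfp36l2 to -0.45 (SE 0.15, adjusted p = 0.111), and Zfp36l2 passed when DP KO 1 was left out (-0.62, adjusted p = 0.0134). The 3 genes called in DP had interactions of -0.33 (Zfp36, adjusted p = 0.409), -0.26 (Rc3h1, 0.325) and -0.19 (Rc3h2, 0.503). In means, Zc3h12a was 1.10-fold higher in DP than in ISP in KO libraries and 2.16-fold higher in control libraries, and Zfp36 was 2.27-fold higher in KO and 2.85-fold higher in control libraries. Between ISP and CD25 the interaction called 0 of the 7 and 0% of all genes with limma, where 1105 had an unadjusted p under 0.05 and voom called 19 genes.

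Among the companion lists the exosome was higher in DP KO than in DP control libraries in 5 of 11 genes and lower in 0. Over all tested genes 14.1% were called higher and 7.78% lower in DP KO. Exosc8 averaged 144.5 ± 11.7 RPKM in KO and 104.1 ± 2.90 in control libraries (log2 difference 0.47, SE 0.06, limma adjusted p = 5.76e-04). Leaving out single libraries gave between 2 (without DP KO 2) and 8 (without DP KO 1) higher, and 3 without DP control 2. Of 11 decapping and decay genes 4 were lower in KO, such as Xrn1 at 14.3 ± 3.12 in KO and 22.3 ± 2.69 in control libraries (-0.61, SE 0.20, adjusted p = 0.0484), and leaving out single libraries gave between 0 and 4, with 0 without DP KO 2, DP control 1 or DP control 2. Of 15 CCR4-NOT genes 1 was higher and 2 lower, with Btg2 at 178.3 ± 18.3 in KO and 225.9 ± 19.1 in control libraries (-0.34, SE 0.09, adjusted p = 0.0186), and 0 to 2 were higher and 0 to 3 lower with single libraries left out. Of 11 AU-rich element binders 3 were higher, with Hnrnpd at 77.3 ± 11.0 in KO and 52.8 ± 2.28 in control libraries, and 2 lower, with 1 to 3 higher (1 without DP KO 1, DP KO 2 or DP control 2) and 1 to 2 lower (1 without DP KO 2 or DP control 2). Among the 9 Regnase paralogs and regulators 1 was lower, and 0 without any one of the 4 DP libraries. Of 17 reported targets 4 were higher and 1 lower in KO, and 2 to 4 were higher (2 without DP control 1) and 0 to 1 lower (0 without DP KO 2 or DP control 1) with single libraries left out. Myc averaged 38.5 ± 4.32 in KO and 19.8 ± 1.48 in control libraries (0.92, SE 0.08, adjusted p = 1.03e-04), and Ccne2, cyclin E2, 15.1 ± 1.18 in KO and 10.5 ± 1.11 in control libraries (0.48, SE 0.09, adjusted p = 0.00497). The median log2 difference was 0.21 for the exosome, -0.13 for decapping and decay, -0.06 for CCR4-NOT and 0.19 for the targets, against 0.001 over all genes. These comparisons use the same DP libraries as the stage comparisons above.

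An annotated gene on the other strand overlaps 4 of the 7 genes, namely Gm44710 at Zfp36, Gm26669 at Zfp36l1, AC132455.1 at Zfp36l2 and Ccl25, a chemokine gene of thymic epithelium, at Elavl1. Whether counting used the strand is not given in the sources used here, so reads from the partners cannot be told apart from those of the 4 genes.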

How the data were processed

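The authors deposited 1 table of RPKM values per gene for 12 libraries. Per the submitters' processing notes BWA and GRCm38 were used, and no source used here gives the counter, the annotation or a tool version. Groups follow the sample titles. Values were whole multiples of what 1 read is worth: 100% of 169595 values above 0 came out whole within 0.02 reads, which gave 9657633 to 14227980 reads per library. Intervals and floors from such reads would cover counting error only. Median-of-ratios factors were the same in all libraries. Replicates of a group differed by more than sampling noise (chi-square of 3.36 to 7.47 per degree of freedom).

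Genes reaching 1 RPKM in 2 or more libraries were tested with limma 3.58.1 (R 4.3.3, intensity trend) on log2(RPKM + 1), which understates changes of low genes, with Benjamini-Hochberg adjustment over all genes tested and a threshold of 0.05. The 12 libraries were fitted together as 6 groups, with 11303 genes and 6 residual degrees of freedom, except that the CD25 genotypes used their 4 libraries (10636 genes, 2 residual degrees of freedom). Fold values are ratios of mean RPKM. Since the deposited unit is RPKM, count models were replaced by voom on recovered reads, an alternative chosen after seeing the data. The procedure was tested on simulated data with known changes. The 7 genes and the 6 lists beside them were chosen with earlier results of these data known, and list members are named by rank of change, up to 3 called genes per direction averaging at least 5 RPKM on the higher side. Promoter sequences are from RefSeq (GRCm38.p6), with 6 of 7 promoters matched. UTR sequences are from GENCODE M21 transcripts (GRCm38), with 1 principal transcript per gene. At equal rank the transcript with the longest UTR was taken. The list of CCR4-NOT genes uses Rqcd1, the older symbol of Cnot9. Alternatives were another pseudocount (0.1), no filter, voom, scaling to plain read totals, a replicate block, groups by library name, only those libraries in which title and library name name 1 population, and leaving out each library. Tables and plots used Python 3.11.15, pandas 2.3.3, numpy 2.4.6 and matplotlib 3.10.9.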

Additional observations from a re-analysis of the deposited data

How the results depend on the processing

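Zfp36 and Zfp36l2 kept their direction and call at the ISP step and against all anti-CD3 libraries under every alternative run. Grouping by library name sets libraries titled DP against libraries titled ISP whenever anti-CD3 genotypes are compared. Its DP against ISP contrast sets all anti-CD3 replicate 1 libraries against all replicate 2 libraries. Titled stages and genotypes are balanced between those sides, so by the titles this contrast cannot test the stage step. In it limma called 0 genes and 0 of the 7, with Zfp36l1 at -0.035, Zfp36l2 at 0.13 and Rc3h1 at -0.081. Under that grouping Rc3h1 was at 0.14 and Elavl1 at -0.057 at the ISP step. It called 5502 genes and 6 of the 7 between genotypes in ISP (Zfp36 1.22, Zfp36l2 -0.81, Zc3h12a 0.66, Rc3h1 0.49, Rc3h2 0.94, Elavl1 -0.33) and 5622 genes and 6 of the 7 in DP (Zfp36 1.41, Zfp36l1 0.61, Zfp36l2 -0.71, Rc3h1 0.49, Rc3h2 0.80, Elavl1 -0.45, but not Zc3h12a at 0.20). Its interaction between DP and ISP, which by the titles compares the stage difference of replicate 1 with that of replicate 2, called 0 genes. The values there were 0.19 for Zfp36, 0.55 for Zfp36l1, 0.10 for Zfp36l2, 0.0027 for Rc3h1 and -0.12 for Elavl1. Between ISP and CD25 the interaction of that grouping called 3372 genes and 3 of the 7 (Zfp36 0.96, Zfp36l2 -0.89, Rc3h2 0.99).

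For the CD25 genotypes limma called 2 genes, and 1 with a pseudocount of 0.1, 1 with no filter, 14 with voom and 9 in the fit of 12 libraries. For ISP it called 40, and 8 with no filter and 181 with voom. In DP, 3 of the 7 became 1 with a pseudocount of 0.1 and 0 with no filter. The DP interaction had 474 genes, and 185 with no filter. The ISP interaction had 0, and 1 with a pseudocount of 0.1, 2 with no filter and 19 with voom. The causes were not tested.

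Leaving out each library gave 4 to 93 genes for CD25, 6 to 56 for ISP, 844 to 2604 genes and 0 to 4 of the 7 for DP, 64 to 1053 genes and 0 to 1 of the 7 for the DP interaction, and 0 to 3 genes for the ISP interaction. Signs turned in the CD25 comparison for Zfp36 (-0.023 to 0.55), Zfp36l1 (-0.15 to 0.12), Zfp36l2 (-0.0058 to 0.18), Zc3h12a (-0.022 to 0.22), Rc3h2 (-0.16 to 0.051) and Elavl1 (-0.026 to 0.064). They also turned in ISP for Rc3h1 (-0.14 to 0.038), in DP for Zfp36l1 (-0.28 to 0.027) and Zfp36l2 (-0.30 to 0.050), in the ISP interaction for Rc3h1 (-0.058 to 0.12), and against all anti-CD3 libraries for Rc3h2 (-0.059 to 0.046). Of these only Zfp36l2 in DP was called, without DP KO 1.

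Replicate numbers showed little pairing over all genes (15 correlations of -0.066 to 0.125). Such correlations cannot show whether ISP and DP libraries of the same replicate number came from the same embryos. Ddx3y was at 7.28 and 29.7 RPKM in ISP control 1 and 2, and at 15.7 and 56.3 in DP control 1 and 2. The main fit used no pairing, and the replicate block is given here only. With the replicate block 2503 genes were called in DP against 2476 without it, 1 gene in the ISP interaction against 0, and the DP call of Rc3h1 was lost (adjusted p = 0.0548). The quasi-likelihood and Wald count models planned as alternatives were not run, because the deposited unit is RPKM. Reads limit Zc3h12a (39 to 147 per library) and Zfp36 in CD25 cells most.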
